A study of Xiphophorus multilineatus with 4 samples.

Results

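The transcripts of tk1 (ENSXMAT00000000255) and ube2c (ENSXMAT00000012443) were examined in the whole brains of 4 adult Xiphophorus multilineatus males, as 2 of the 18872 transcripts in the count table. The ube2c transcript was found by its identifier and the tk1 transcript by the name that the study's list of differentially expressed genes gives it. Both genes were chosen because that list, made from these same brains, holds them as lower expressed in HQJE fish. Their difference between HQJE and LQJE is therefore given as a description, and no test of it is used as support.

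The males belonged to the Y-II size class, one of the genetically influenced adult sizes of this species, and were laboratory-reared F2 fish of wild-caught females. Fish 15 and 11 (HQJE) had grown up in a high quality juvenile environment, housed singly after 14 days of age with Tetramin and brine shrimp at will. Fish 17 and 18 (LQJE) had grown up in a low quality one, kept in groups at more than 6 fish per liter and given Tetramin once a day. Food and density differed together between the rearing environments, so their parts cannot be told apart. All 4 males had the high quality diet as adults. One library was made from each brain, and the deposited values are raw read counts per transcript.

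Both genes belong to the machinery of dividing cells. The tk1 gene encodes the soluble thymidine kinase, which phosphorylates thymidine for DNA synthesis. In mammalian cells it is made as cells enter S phase and removed after mitosis by the anaphase-promoting complex, a ubiquitin ligase. The ube2c gene encodes a ubiquitin-conjugating enzyme that works with this same complex, and in mammals it takes part in the destruction of mitotic cyclins. The brains of adult bony fish keep zones of dividing progenitor cells, and RNA of both genes in whole brain averages these zones with all non-dividing tissue. In bulk RNA, fewer dividing cells and less RNA per cell cannot be told apart.

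Total counts ranged from 14260762 to 25531496 per brain, the lowest in LQJE fish 17. Fish 17 also stood apart from the other libraries, since the chi-square per degree of freedom of its counts was 28.7 to 29.7 in the 3 pairs that include it, against 14.9 to 17.5 in the other 3 pairs. CPM values were computed from TMM-scaled totals, and a count of 0 in a brain allows up to 3 counts, which is 0.120 to 0.217 CPM. Intervals and floors cover counting error only. No defining marker of neurons, oligodendrocytes or radial glia could be paired with a transcript, so the labelled tissue was not checked against its markers. The other genes of thymidine supply, DNA replication, mitosis and the anaphase-promoting complex could not be paired either and were not analysed here, which leaves tk1 and ube2c as the reading of dividing cells.

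Expression of tk1 was lower in both HQJE brains than in either LQJE brain. The transcript was read 70 times in fish 15 and 72 times in fish 11 from HQJE, against 103 times in fish 17 and 179 times in fish 18 from LQJE. These counts gave 3.18 and 3.25 CPM in HQJE, against 7.47 and 7.13 CPM in LQJE. The groups did not overlap even as raw counts, although fish 17 had the smallest library of the 4. The exact 95% counting intervals ran up to 4.10 CPM in the HQJE brains and started at 6.09 CPM in the LQJE brains. The means were 3.22 ± 0.0492 CPM in HQJE fish and 7.30 ± 0.237 CPM in LQJE fish (SD, n = 2 each). On the log2 scale HQJE over LQJE came to -1.18 (standard error 0.222), so that tk1 was 2.26-fold lower in HQJE fish.

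Expression of ube2c was lower in the HQJE brains in a similar proportion. There were 96 reads in fish 15 and 87 in fish 11 from HQJE, against 133 in fish 17 and 201 in fish 18 from LQJE. In CPM the HQJE brains were at 4.37 and 3.93, against 9.64 and 8.01 in LQJE. Neither raw counts nor CPM overlapped between the groups. The counting intervals of the HQJE brains reached 5.33 CPM, and those of the LQJE brains started at 6.94 CPM. The means were 4.15 ± 0.308 CPM in HQJE fish and 8.82 ± 1.15 CPM in LQJE fish (SD, n = 2 each). The log2 fold change was -1.08 (standard error 0.219), or 2.12-fold lower in HQJE fish. The plot of CPM by brain shows both genes side by side.

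**Figure D1:**
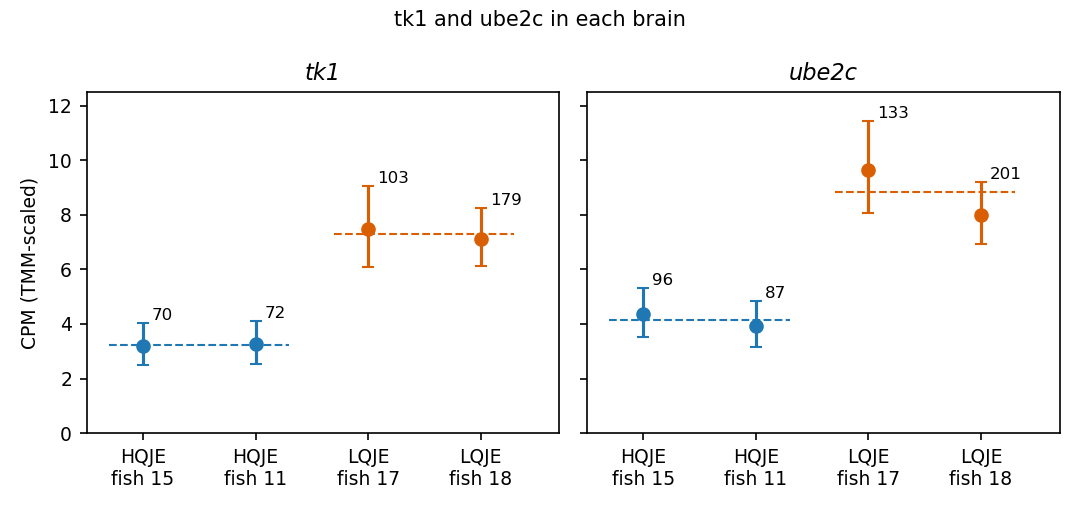
CPM of tk1 (left) and ube2c (right) in each brain, with exact 95% counting intervals as bars, group means as dashed lines and the raw count beside each interval. The HQJE brains lie between 3.18 and 4.37 CPM and the LQJE brains between 7.13 and 9.64 CPM, and no interval of one group touches one of the other for the same gene.

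Groups that do not overlap are common with 2 brains against 2. The HQJE brains were both lower than the LQJE brains in CPM in 21.1% of the 18474 tested transcripts, and as raw counts in 2.73%. An exact permutation test of 2 brains against 2 cannot give a p below 0.333. With the call of the study, which asks for a raw p up to 0.01 and a change of 2-fold or more, the quasi-likelihood test of edgeR called both genes, and it called 0.189% of all tested transcripts, 26 lower and 9 higher in HQJE fish. Since the genes were chosen on this contrast, nothing is read from their calls. Without TMM scaling the same test called 21 transcripts as lower and 19 as higher. After Benjamini-Hochberg adjustment no transcript of the quasi-likelihood test of edgeR was at 0.05 or below (lowest adjusted p = 0.576), and 1403 were at a raw p up to 0.05. The number at that adjusted p was 28 in the edgeR exact test, 42 in the edgeR likelihood ratio test and 79 in the DESeq2 Wald test.

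The fold changes held most of their size with each brain left out. Their sign could not turn in these fits, as both HQJE brains were well below both LQJE brains. For tk1 the log2 fold change was -1.19 when HQJE fish 11 was removed and -1.16 when HQJE fish 15 was removed, and removing LQJE fish 17 or LQJE fish 18 gave -1.15 or -1.18. For ube2c the same removals gave -1.01 (fish 11), -1.16 (fish 15), -0.95 (fish 17) and -1.19 (fish 18). The call was lost for tk1 in all 4 of these fits, each of which has 3 brains and assumes that the lone brain of a group varies like the other group. For ube2c it was kept in 1 of the 4, the one without fish 18. Each of the 4 pairs of a HQJE brain with a LQJE brain gave tk1 a ratio between 0.426 and 0.456, and ube2c a ratio between 0.408 and 0.545.

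**Figure D2:**
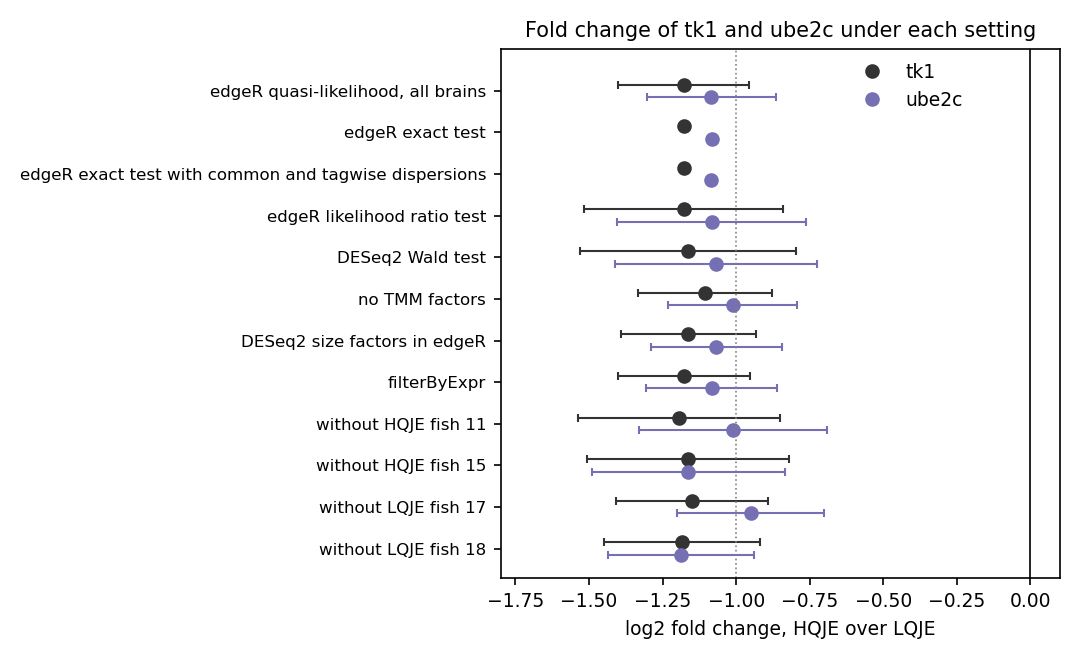
Log2 fold change of HQJE over LQJE for tk1 and ube2c (x axis) under each test, scaling, filter and set of brains (y axis). Bars are standard errors where the fit gives a basis for one, the solid line is no change and the dotted line a log2 fold change of -1. All values lie between -1.19 and -0.95.

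The brains of a group resembled each other closely in tk1. The HQJE brains differed by 1.02-fold and the LQJE brains by 1.05-fold. The SD of tk1 was 0.0492 CPM in HQJE fish and 0.237 CPM in LQJE fish, while counting error alone would give 0.382 and 0.638 CPM in these groups. For ube2c the brains differed by 1.11-fold within HQJE and by 1.20-fold within LQJE. Its SD was 0.308 CPM in HQJE fish, below the 0.434 CPM of counting error alone, and 1.15 CPM in LQJE fish, above the 0.694 CPM of counting error alone. Over the 15087 transcripts that averaged 1 CPM or more, the median difference between the 2 brains was 0.16 on the log2 scale within HQJE and 0.18 within LQJE. The tk1 differences were 0.03 and 0.07 on this scale, and 11.1% and 20.1% of transcripts had a smaller one in HQJE and in LQJE. The ube2c differences were 0.15 and 0.26, with 48.3% and 64.1% of transcripts below them. The p by which the study's list was made depends on the spread within groups. At a given fold change, small differences within groups are therefore favoured by the choice of these genes. The list as a whole was not even within groups. Among its 83 transcripts lower in HQJE fish, the larger of the within-group ratios had a median of 11.1.

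The proportion of tk1 to ube2c reads was similar in the 4 brains. As both genes were chosen for a change of like size and direction, a similar proportion in both groups follows in large part from the choice. Of the reads on both transcripts together, tk1 took 42.2% in fish 15 (exact 95% interval 34.6% to 50.1%) and 45.3% in fish 11 (37.4% to 53.4%) from HQJE. From LQJE it took 43.6% in fish 17 (37.2% to 50.2%) and 47.1% in fish 18 (42.0% to 52.3%). Pooled within groups the share was 43.7% of 325 reads in HQJE fish and 45.8% of 616 reads in LQJE fish. The counting intervals of all 4 brains overlapped.

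The likeness of whole profiles was measured as the root mean square difference of log2 CPM over the 4 brains, each transcript centred on its own mean. Between tk1 and ube2c it was 0.10, against a median of 0.60 between tk1 and all transcripts averaging 1 CPM or more and of 0.57 between ube2c and the same transcripts. Of these 15087 transcripts, 3 were nearer to tk1 than ube2c was, and 4 were nearer to ube2c than tk1 was. Both genes were picked for the same difference, and most of the compared transcripts were not. Their likeness beside these medians and counts therefore follows in large part from the choice, and nothing is read from it. The transcript nearest to tk1 was ENSXMAT00000006913, at a difference of 0.05, which was read 31 and 33 times in HQJE fish 15 and 11 and 51 and 82 times in LQJE fish 17 and 18. The transcript nearest to ube2c was ENSXMAT00000004181, at 0.06, read 43 and 41 times in HQJE fish 15 and 11 and 60 and 100 times in LQJE fish 17 and 18. This second transcript was also among the 5 nearest to tk1. The files do not pair either one with a gene name. The 5 nearest transcripts of each gene were all lower in HQJE fish, which follows from their nearness to a gene that is lower there. Among these 5, the other gene of the pair was the only one in the study's list. After each other, the nearest genes of that list were myl1 for tk1, at 0.14, and dnali1 for ube2c, at 0.18. The myl1 gene encodes a light chain of fast skeletal myosin, and dnali1 a light intermediate chain of axonemal dynein, the motor of motile cilia.

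Within the study's list, tk1 and ube2c were among the transcripts whose difference was carried most evenly by the brains. Of the 131 transcripts of the list, 83 had a negative log2 fold change in the quasi-likelihood fit. Among these 83, tk1 had the lowest share of its summed CPM in a single brain, 35.5% in LQJE fish 17. The ube2c transcript had the third lowest, 37.2%, also in fish 17. The median of the 83 was 75.0%. This share also grows with the fold change itself, and both genes lie at its small end. The larger of the within-group ratios between brains was 1.05 for tk1 and 1.20 for ube2c, the second and the fifth smallest of the 83. The median was 11.1, and 17 transcripts had a brain with no reads. The smallest ratio was that of the parvalbumin gene pvalb1 (1.04). The muscle genes tnnt3a (1.07) and myl1 (1.18) lay between tk1 and ube2c, so this evenness was not particular to the division genes. These values come from the contrast that made the list and were not tested.

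**Figure D3:**
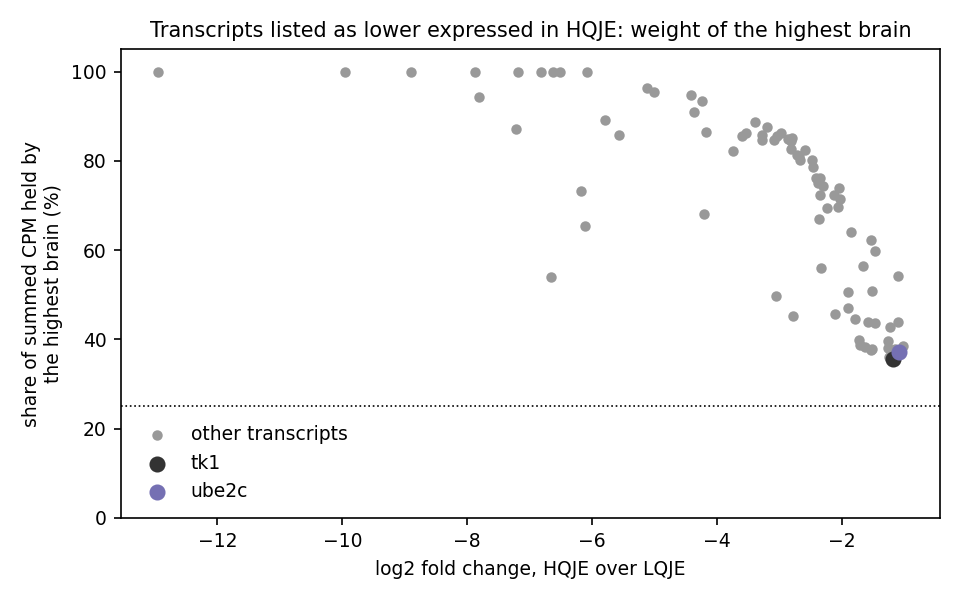
Each point is 1 of the 83 transcripts of the study's list that were lower in HQJE fish in the quasi-likelihood fit. Axes are its log2 fold change of HQJE over LQJE (x axis) and the share of its summed CPM held by its highest brain (y axis, %). The dotted line is an equal share of the 4 brains. The points of tk1 (35.5%) and ube2c (37.2%) lie at the lower right, below the median of 75.0%.

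From the study's list, 6 further genes with a part in cell division, nucleotide supply or new neurons were considered. They did not move as 1 group. Of these 6, 4 were lower in HQJE fish without overlap, as were 21.1% of all tested transcripts, and 2 of them were past the quasi-likelihood call, against 0.141% of all tested transcripts called as lower. The other 2 had a higher HQJE mean that came from 1 brain and were not called. Their median log2 fold change was -1.07, against -0.02 over all tested transcripts. The list was made from these same brains, so the counts are no independent evidence of direction.

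The 2 called genes were STMN1 and dlb. Stathmin 1 destabilizes microtubules and is abundant in developing neurons and in dividing cells, and STMN1 had 2.96 and 3.89 CPM in HQJE fish 15 and 11, against 6.81 and 8.33 CPM in LQJE fish 17 and 18. Its log2 fold change was -1.15 (standard error 0.259). The study's list labels this transcript "STMN1 (1 of many)". If the gene has close copies, reads could be split among them. The dlb gene encodes deltaB, a Notch ligand that marks newly forming neurons in zebrafish. It had 6.41 and 7.14 CPM in HQJE fish 15 and 11, against 11.7 and 15.8 CPM in LQJE fish 17 and 18, and its log2 fold change was -1.03 (standard error 0.211). As for tk1 and ube2c, both LQJE brains were above both HQJE brains in these genes.

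In the other 4 genes a single brain weighed more. NME1, a nucleoside diphosphate kinase that makes nucleoside triphosphates, had 6.73 and 3.80 CPM in HQJE fish 15 and 11 and 7.97 and 14.5 CPM in LQJE fish 17 and 18. The list pairs it with NME2 as well, so reads of close relatives could be shared. The wee2 gene, which encodes an inhibitory kinase of the oocyte cell cycle in mammals, had 4.73 and 3.34 CPM in the HQJE brains, against 5.15 CPM in LQJE fish 17 and 23.6 CPM in LQJE fish 18. For wee2 the groups were thus apart by little except in fish 18, which held 64.1% of the summed CPM. The cdk21 gene, a cyclin-dependent kinase of fishes, had 4.96 CPM in HQJE fish 15 and 27.3 CPM in HQJE fish 11, against 3.48 and 5.22 CPM in LQJE fish 17 and 18. The transcript paired with human KAT7, a histone acetyltransferase linked to the licensing of replication, was read 48 times in HQJE fish 11 and 0 times in HQJE fish 15 and in both LQJE brains. The evenness over both brains of a group seen in tk1 was not a feature of all division genes of the list.

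Some skeletal muscle transcripts were also lower in the HQJE brains and are given here beside tk1 and ube2c because they share this direction. Of the 6 muscle markers considered, 4 were paired with a transcript (mylpfa, myl1, tnnt3a and tnnc2), and all 4 were lower in HQJE fish without overlap (21.1% of all tested transcripts), 3 of them past the quasi-likelihood call (0.141% of all tested transcripts called as lower). They could be paired only because the study's list, made from these brains, holds them, so these counts are no independent evidence of direction. Their summed level was 5.82 and 5.24 CPM in HQJE fish 15 and 11 and 15.0 and 17.7 CPM in LQJE fish 17 and 18. The sum was thus highest in fish 18, whereas tk1 and ube2c were highest in fish 17, with overlapping counting intervals of fish 17 and 18 in each. Single muscle genes of the study's list differed in this. The mylpfa, myl1 and tnnc2 transcripts were highest in fish 18. The tnnt3a, MYH13 and both tnni2a.4 transcripts were highest in fish 17, like tk1 and ube2c. The mylpfa transcript had 0 reads in both HQJE brains and 3 and 37 reads in LQJE fish 17 and 18. The tnnt3a transcript, a fast muscle troponin T, had 2.87 and 2.67 CPM in HQJE fish 15 and 11 and 8.12 and 7.93 CPM in LQJE fish 17 and 18, so that its brains differed within groups by 1.07-fold at most. The part of muscle RNA in the difference of tk1 and ube2c was not tested, nor was that of other cell types. None of the blood, immune, vessel and germ cell markers considered was paired with a transcript, although the study's list names other genes of immune cells and oocytes.

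**Figure D4:**
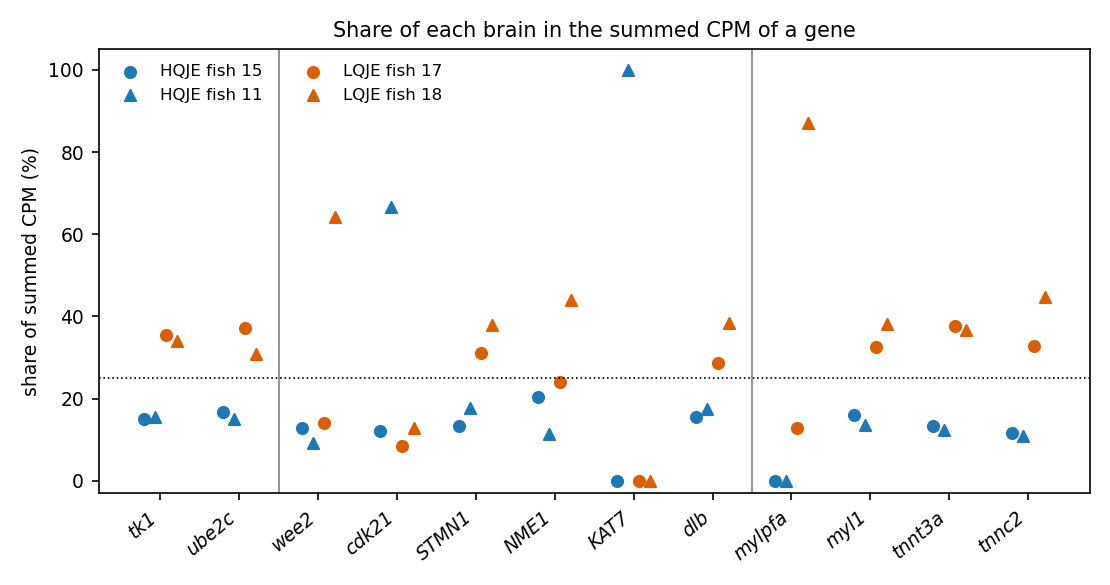
Share of each brain in the summed CPM of a gene (y axis, %), for tk1 and ube2c (left), the 6 further genes of the study's list (middle) and the 4 muscle genes (right). Blue symbols are HQJE brains and orange symbols LQJE brains, and the dotted line is an equal share of the 4 brains. Both LQJE brains lie above the line in tk1, ube2c, STMN1, dlb, myl1, tnnt3a and tnnc2, whereas fish 18 alone lies above it in wee2, NME1 and mylpfa and fish 11 alone in cdk21 and KAT7.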

How the data were processed

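Whole brains of 2 HQJE and 2 LQJE males were grouped by their sample labels, which spell the groups with letters exchanged. Per the methods of the study, reads were quality-trimmed by the authors and mapped with Bowtie2 to an X. multilineatus transcript set that carries X. maculatus identifiers by best BLASTN hit, and the raw counts per transcript were deposited. The treatment of read pairs, strand and reads with more than one match is not stated in the sources used. Gene names were taken from the study's list of 131 differentially expressed transcripts, whose values were not used.

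The 398 transcripts without any read were removed, and 18474 were fitted with edgeR 4.0.16 (R 4.3.3), with TMM scaling and the quasi-likelihood test. In this fit a standard error is the size of the log2 fold change over the root of its F statistic. In the likelihood ratio test the likelihood ratio statistic takes the place of F, and for DESeq2 its own standard error is given. Profiles used a prior count of 2. Counting intervals are exact Poisson or Clopper-Pearson intervals at 95%, computed with scipy 1.17.1. The chi-square per degree of freedom was 14.9 or more in every pair of brains (transcripts with 10 or more reads in the pair). That is above sampling noise, but no test was made of it. Each brain was counted as a sample because 1 library was made from each. The p-values rest on the spread between these fish, estimated with information shared over all transcripts. The labels do not say whether brains share a brood or tank, so the p-values may not reflect independently reared fish.

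In simulated data the test called 193 of 200 transcripts changed 4-fold and 85 unchanged ones, of 18386 transcripts. Smaller changes, such as the 2.26-fold of tk1 and the 2.12-fold of ube2c, were not simulated. The 85 unchanged transcripts called were more than the 35 called in the brains themselves. The simulated counts were drawn with the dispersion fitted to each transcript, and their spread need not match that of the brains. No rate of false calls in the brains is therefore read from them. The alternatives were the edgeR exact and likelihood ratio tests, DESeq2 1.42.0, other scalings, filterByExpr and each brain left out. The exact test with common and tagwise dispersions was added after the data were seen. The genes named were tk1, ube2c, 6 listed genes tied to division, the paired muscle markers and the transcripts with the nearest profile. The genes and lists were chosen with earlier results of these data known. No gene of the other lists could be paired with a transcript, and sequences were not analysed here.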

Additional observations from a re-analysis of the deposited data

How the results depend on the processing

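All 11 alternatives kept tk1 and ube2c lower in HQJE fish, the direction for which they were chosen. As both HQJE brains were well below both LQJE brains, leaving a brain out could not reverse it. Without TMM scaling the log2 fold change of tk1 was -1.11, a shift larger than the spread between brains of a group, and that of ube2c was -1.01. With each brain left out it ranged from -1.19 to -1.15 for tk1 and from -1.19 to -0.95 for ube2c. The standard error was 0.222 for tk1 and 0.219 for ube2c in the main fit. It was larger in the edgeR likelihood ratio test (0.339 and 0.321) and in DESeq2 (0.368 and 0.344), where it is computed in other ways. Both genes were past the call in all 7 alternatives that kept every brain. They were taken from a list made with edgeR from these same brains, so nothing is read from these calls. The number of transcripts called was 35 and became 75 with the edgeR exact test, 133 with that test on common and tagwise dispersions, 121 with the likelihood ratio test and 53 with DESeq2, and it ranged from 56 to 348 with a brain left out, the highest without fish 18. The cause was not tested. With at least 5 CPM required, 1 of the 5 nearest transcripts remained for each gene, since most of the 5 are below that level, and with a prior count of 0.5 all 5 remained. The planned counts and medians over other division genes were not run, because none was paired with a transcript. No paired analysis was possible because the labels give no pairing of HQJE with LQJE fish. With 70 to 201 reads per brain, counting error alone is 7.05% to 12.0% of a value.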
